A study of Mus musculus with 4 samples.

Results

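The genes described here are 10 chaperones and heat shock proteins of the mouse testis, 4 that are made mainly or abundantly in germ cells (Hspa1l, Hspa2, Dnajb8 and Clpb) and 6 that most cells make (Dnaja2, Hspa5, Hspa8, Hsp90ab1, Hspd1 and Hspe1). They were taken as every probe set annotated with exactly 1 gene, where that gene is on this list. Of the 10 genes, 9 had such a probe set, 11 probe sets in all, out of 8251 genes named in this way on the array. Hsp90ab1 had none and was skipped. The genes were chosen by their signal and their difference between genotypes on these same arrays, so their values between genotypes are a description. Where member probe sets are counted as passing the threshold of the fit over all probe sets, the count is part of that description and supports nothing.

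RNA of whole testis was measured on Affymetrix Mouse Genome U74Av2 arrays, with 2 arrays for Tslc1-/- and 2 for Tslc1+/+ mice. All were male, C57BL/6J and 16 weeks old, and the Tslc1-/- mice lacked Tslc1, now named Cadm1, an immunoglobulin-like protein that joins neighbouring cells. The labels do not say how the allele was made, nor whether same-genotype arrays hold RNA of different mice, so the spread between them, and any p-value that rests on it, may be technical. A probe set's signal is in the units of the Affymetrix MAS5 software, with each array scaled to the same average brightness, and signals of different probe sets cannot be set against each other.

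Chaperones bind unfolded or partly folded proteins and, by cycles of ATP hydrolysis, help them fold, assemble or be taken apart. HSP70 proteins do this together with J-domain co-chaperones, which deliver clients and start ATP hydrolysis, while chaperonins enclose a client in a chamber. Male germ cells carry their own HSP70 proteins: in the mouse, Hspa2 is made from meiotic prophase on and is needed for male meiosis, and Hspa1l is made after meiosis in spermatids.

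The promoter sequences of the germ-cell genes and of Dnaja2 are shown first, since 3 of the germ-cell genes were lower and Dnaja2 was higher in Tslc1-/- testis. Each is the 250 bases upstream of a RefSeq start site in GRCm38.p6, read 5′ to 3′ on the strand of the gene. Capitals mark TGACG on either strand (CGTCA on the other), the core of the cAMP response element through which CREM acts in spermatids. Of the 10 genes, 8 had a promoter in the RefSeq table used here.
Hspa1l, chr17:34972453-34972702, plus strand: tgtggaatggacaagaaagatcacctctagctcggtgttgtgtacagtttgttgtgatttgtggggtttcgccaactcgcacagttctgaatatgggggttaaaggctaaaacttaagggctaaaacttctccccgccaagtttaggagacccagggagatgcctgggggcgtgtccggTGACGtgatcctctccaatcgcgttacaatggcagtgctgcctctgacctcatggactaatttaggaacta
Dnajb8, chr6:88222018-88222267, plus strand: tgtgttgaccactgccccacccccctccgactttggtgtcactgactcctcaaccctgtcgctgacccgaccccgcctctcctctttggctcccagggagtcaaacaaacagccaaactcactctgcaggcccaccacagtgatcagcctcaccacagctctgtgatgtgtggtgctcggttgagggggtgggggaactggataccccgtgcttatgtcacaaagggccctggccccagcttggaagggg
Clpb, chr7:101663501-101663750, plus strand: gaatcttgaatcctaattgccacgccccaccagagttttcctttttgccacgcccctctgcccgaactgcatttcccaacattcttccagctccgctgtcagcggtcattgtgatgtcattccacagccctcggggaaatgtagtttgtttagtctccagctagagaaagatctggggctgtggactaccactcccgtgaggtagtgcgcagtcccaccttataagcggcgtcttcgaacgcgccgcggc
Hspa2, chr12:76404120-76404369, plus strand: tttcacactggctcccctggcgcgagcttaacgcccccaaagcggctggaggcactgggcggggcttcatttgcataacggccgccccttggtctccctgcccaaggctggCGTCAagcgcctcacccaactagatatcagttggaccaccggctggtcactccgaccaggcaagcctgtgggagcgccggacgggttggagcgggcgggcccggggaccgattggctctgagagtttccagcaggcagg
Dnaja2, chr8:85555362-85555611, minus strand: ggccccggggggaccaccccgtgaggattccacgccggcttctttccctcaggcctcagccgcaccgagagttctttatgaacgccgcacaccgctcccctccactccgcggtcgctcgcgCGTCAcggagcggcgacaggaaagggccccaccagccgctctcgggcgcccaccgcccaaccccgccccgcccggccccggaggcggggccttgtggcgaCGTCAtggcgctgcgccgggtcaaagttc
The mitochondrial chaperonin genes Hspd1 and Hspe1 lie head to head on chromosome 1, and from the inner Hspd1 start 1 stretch is upstream of both. The outer Hspd1 start lies beyond the Hspe1 start, so from that start the stretch is inside Hspd1. The stretch is shown from the Hspe1 side. Capitals mark a run of overlapping heat shock elements (TTCNNGAA and GAANNTTC), the sequence heat shock factors bind.
Hspe1, chr1:55087898-55088147, plus strand: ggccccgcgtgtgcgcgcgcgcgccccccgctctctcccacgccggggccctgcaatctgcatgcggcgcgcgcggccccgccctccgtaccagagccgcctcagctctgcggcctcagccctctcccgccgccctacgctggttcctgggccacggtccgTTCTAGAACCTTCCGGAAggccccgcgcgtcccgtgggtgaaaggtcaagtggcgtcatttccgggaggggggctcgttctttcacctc

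Among the genes that were lower in Tslc1-/- testis, Hspa1l held 1 core TGACG, from 71 to 67 bases upstream of its start, while the Dnajb8 and Clpb windows held none. Hspa2, on chromosome 12, held 1 core, on the opposite strand from 139 to 135 bases upstream, and Dnaja2 held 2 on the opposite strand. Over all members 6 of 9 windows held the core, against 17.8% of the 32851 windows of all genes, but the match in a Hspd1 window and that in the Hspe1 window are 1 and the same site, counted in both. The core contains CG, and the member windows were from 49.6% (Hspa1l) to 73.2% (Dnaja2) G or C. No share was taken over windows of similar composition, so nothing is read from this difference. The full element TGACGTCA was in none of the 9 windows and in 1.55% of all windows. The core was present in windows of genes that were lower, higher and near the same level in Tslc1-/- testis. The windows of Clpb, Hspa2 and 1 of the 2 Hspd1 windows start from a site inside the gene's annotated outer edge, so other transcripts of these genes begin elsewhere.

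The run of heat shock elements in the Hspe1 window is 18 bases long and is the same run, read from the other strand, in 1 of the Hspd1 windows. TTCNNGAA was found in 7.17% and GAANNTTC in 6.69% of all windows. No other member window held either form. Hspa5, which encodes the endoplasmic reticulum chaperone BiP, was the member with an ER stress response element, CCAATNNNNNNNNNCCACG, from 65 to 47 bases upstream. That motif was in 0.113% of all windows. CCAAT itself, which is part of that element, was in 3 of 9 member windows, those of Hspa1l, Hspa2 and Hspa5, and in 33.8% of all windows. TATAAA was in none of the 9 and in 12.4% of all. Each motif was searched on both strands, and a match is a match of letters only.

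**Figure D1:**
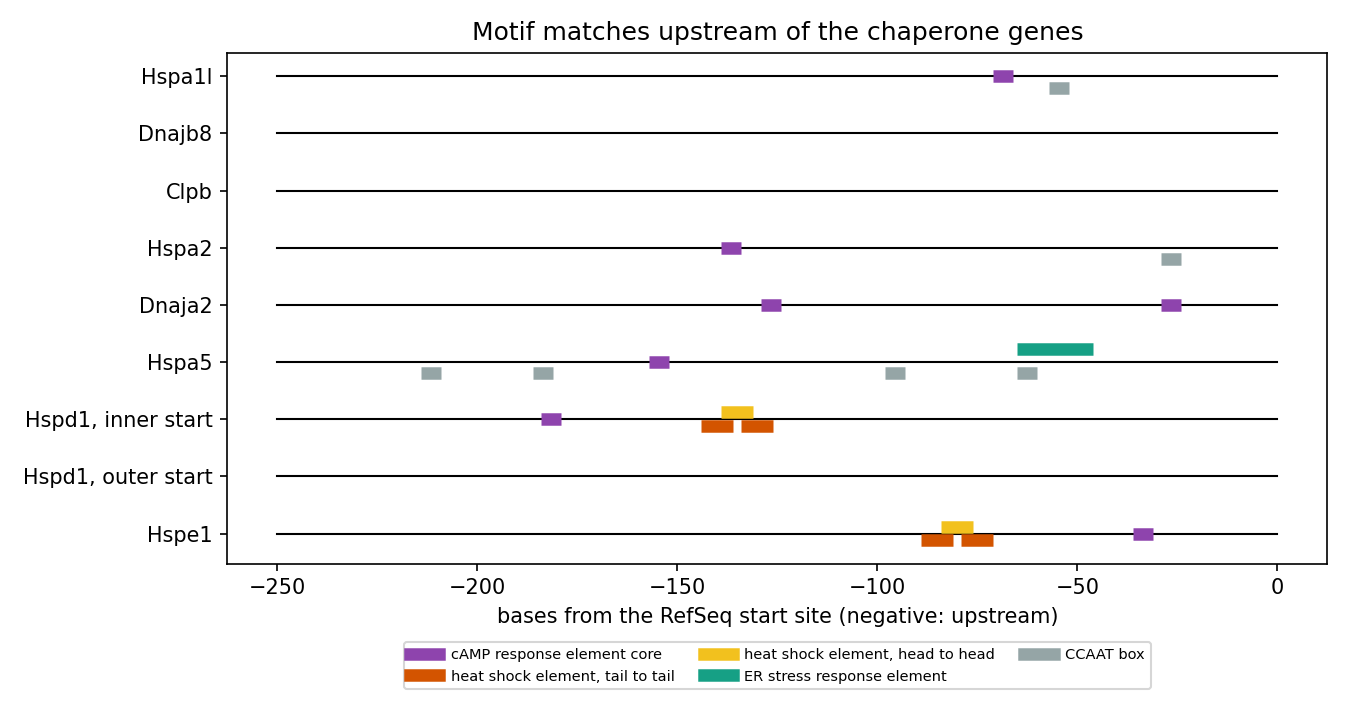
Matches of 5 motifs in the 250 bases upstream of each RefSeq start site of the chaperone genes, with distance from the start in bases on the horizontal axis and 1 line per window (2 for Hspd1). Purple blocks (TGACG) lie in 6 of 9 windows, the orange and yellow heat shock elements overlap in Hspe1 and in 1 window of Hspd1, and the windows of Dnajb8, Clpb and the outer Hspd1 start are empty.

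In Tslc1-/- testis, mean signals were lower for 3 of the 4 germ-cell chaperones, and for the 5 measured ubiquitous ones they were higher for 3 (Dnaja2, Hspa5 and Hspe1) and lower for 2 (Hspa8 and Hspd1). Clpb and Dnajb8 stood at about 49.4% and 50.1% of their Tslc1+/+ means and Hspa1l at 66.7%, while Hspa2 was at 108.5%. Dnaja2 was 2.13 times its Tslc1+/+ mean, and Hspd1 was at 75.9% on its brighter probe set. For Hspa5, Hspe1 and Hspa8 the genotypes overlapped. Changes are given below as log2 of Tslc1-/- minus log2 of Tslc1+/+ after adding 50 to each signal, with the standard error from limma, a linear model fitted to all probe sets at once. A probe set is counted as called where limma's Benjamini-Hochberg adjusted p over all 7975 tested probe sets was under 0.05, and tested means a mean signal of at least 200.

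Dnajb8, a J-domain protein abundant in testis that keeps proteins from aggregating, had signals of 10649.6 and 11451.8 on the Tslc1-/- arrays, against 22830.7 and 21326.3 on the Tslc1+/+ arrays. Both Tslc1-/- values lay far below both Tslc1+/+ values, and the arrays of a genotype were close to each other. Tslc1-/- testis averaged 11051 ± 567 and Tslc1+/+ testis 22078 ± 1064 (SD, n = 2 each), which is -0.995 in log2 (standard error 0.09).

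Clpb, also called Skd3, is a mitochondrial ATPase that takes aggregated proteins apart and is expressed at a high level in testis. Its tested probe set read 7722.4 and 7694.8 in Tslc1-/- testis, against 15281.2 and 15941.8 in Tslc1+/+ testis. The Tslc1-/- arrays nearly coincided and the groups did not overlap, with means of 7709 ± 19.5 for Tslc1-/- testis and 15612 ± 467 for Tslc1+/+ testis (SD, n = 2 each) and a difference of -1.01 in log2 (standard error 0.09). The other Clpb probe set went the opposite way. It read 227.5 and 126.2 in Tslc1-/- testis, against 45.1 and 24.9 in Tslc1+/+ testis, so its mean signal of 105.9 left it below the signal filter, and its suffix marks possible cross-hybridisation.

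Hspa1l, the spermatid HSP70 on chromosome 17, had 14184.0 and 13661.9 in Tslc1-/- testis, against 19835.3 and 21906.4 in Tslc1+/+ testis. The genotypes did not overlap, and the Tslc1+/+ arrays lay further apart than the Tslc1-/- arrays. The log2 change was -0.58 (standard error 0.09), smaller in size than those of Dnajb8 and Clpb. Hspa2, the HSP70 of meiotic cells, had 13896.1 and 14683.2 in Tslc1-/- testis, against 12747.7 and 13598.6 in Tslc1+/+ testis. Both Tslc1-/- values were higher, but by little: the lower Tslc1-/- value exceeded the higher Tslc1+/+ value by less than the arrays of either genotype differed. Its log2 change was 0.12 (standard error 0.09). Both Tslc1-/- arrays were higher than both Tslc1+/+ arrays for 21.5% of all tested probe sets. The point estimates of the 2 germ-line HSP70 genes had opposite signs, but Hspa2 was not called and is not shown to have changed.

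**Figure D2:**
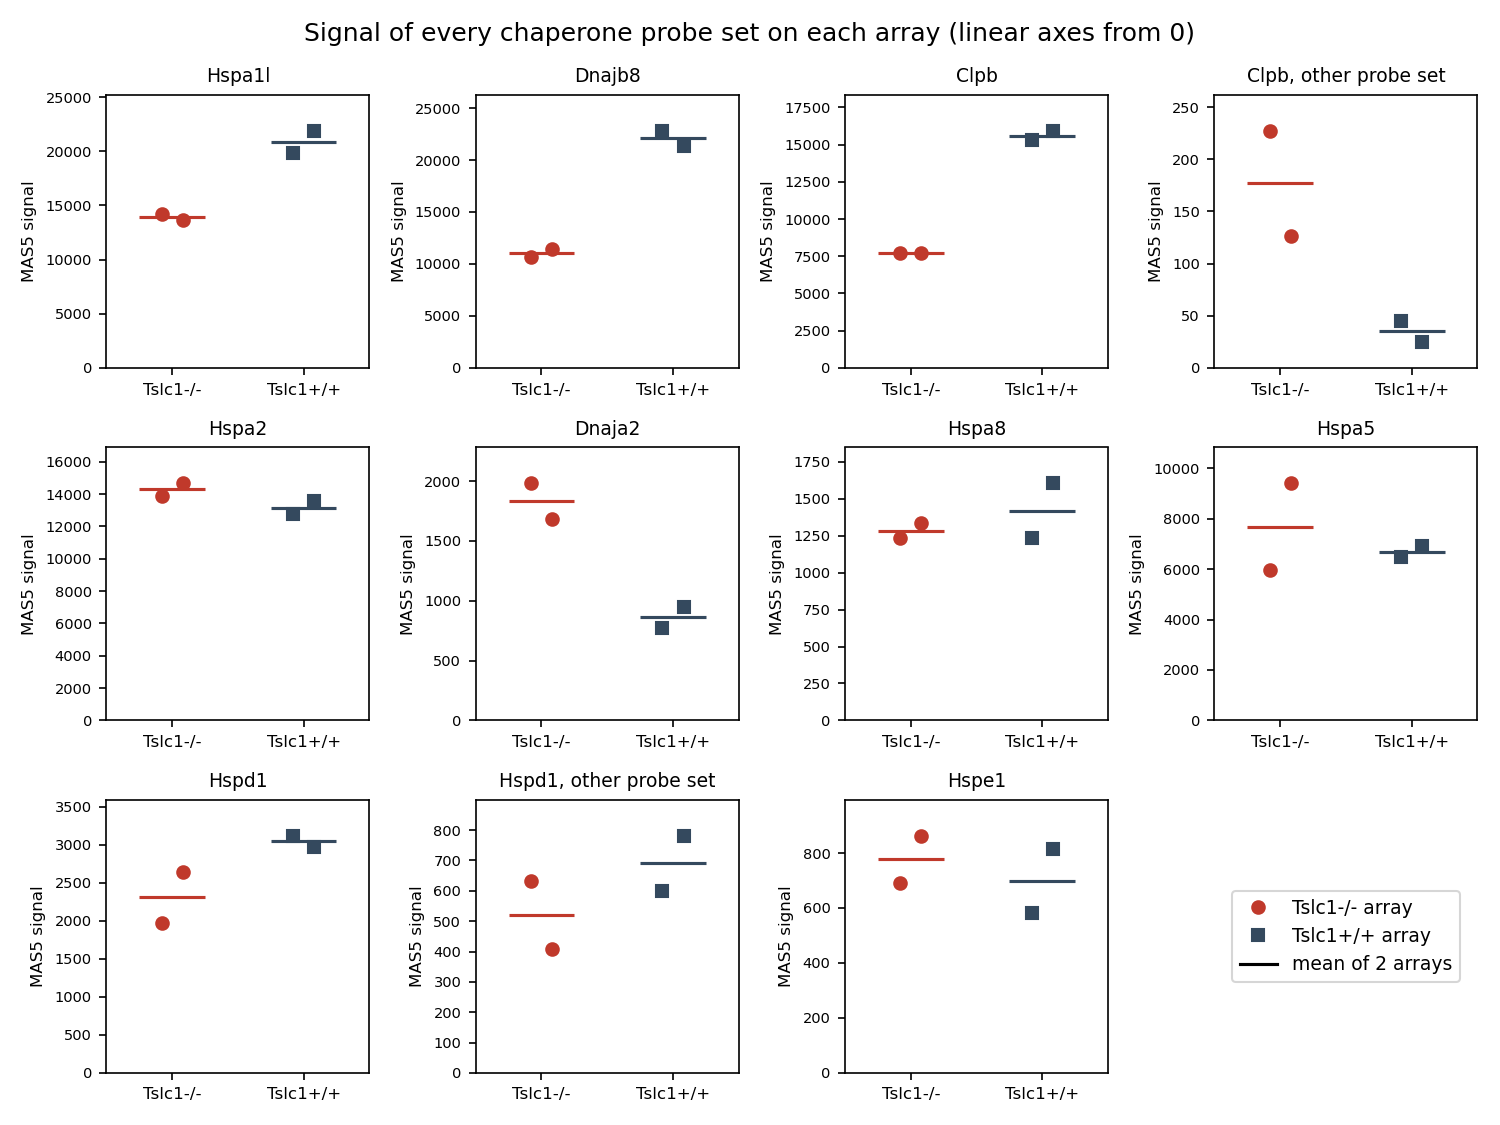
MAS5 signal (vertical axes, linear, from 0) of each of the 11 chaperone probe sets on each array, Tslc1-/- as red circles and Tslc1+/+ as dark squares, with the mean of 2 arrays as a line. The genotypes are far apart for Dnajb8, Clpb and Dnaja2, close for Hspa2, and overlap for Hspa8, Hspa5, Hspe1 and the dimmer Hspd1 probe set.

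Dnaja2, a J-domain co-chaperone of the constitutive HSP70 in the cytosol, was the ubiquitous member whose Tslc1-/- values both lay above its Tslc1+/+ values. It read 1982.6 and 1685.5 in Tslc1-/- testis, against 770.4 and 950.2 in Tslc1+/+ testis. The Tslc1-/- arrays were the closer pair relative to their mean. Tslc1-/- testis averaged 1834 ± 210 and Tslc1+/+ testis 860.3 ± 127 (SD, n = 2 each), or 1.05 in log2 (standard error 0.20).

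Hspa8, the constitutive HSP70 that Dnaja2 works with, read 1232.0 and 1335.8 in Tslc1-/- testis, against 1234.7 and 1606.5 in Tslc1+/+ testis, with overlapping genotypes and a log2 change of -0.13 (standard error 0.20), beside 1.05 for Dnaja2. Hspa5 read 5955.9 and 9413.0 in Tslc1-/- testis, against 6468.0 and 6918.0 in Tslc1+/+ testis. The Tslc1+/+ values lay between the Tslc1-/- values, and the log2 change was 0.16 (standard error 0.18). Without Tslc1-/- replicate 2, the brighter of these arrays, the Hspa5 change was -0.17.

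Hspd1 encodes the large ring of the mitochondrial chaperonin and Hspe1 its lid, and from the inner Hspd1 start they share the upstream stretch shown above. The brighter Hspd1 probe set read 1976.8 and 2646.9 in Tslc1-/- testis, against 3119.5 and 2970.3 in Tslc1+/+ testis. Both Tslc1-/- values were lower, by -0.40 in log2 (standard error 0.17). The dimmer Hspd1 probe set, whose suffix marks possible cross-hybridisation, read 630.9 and 409.0 in Tslc1-/- testis, against 600.3 and 782.0 in Tslc1+/+ testis. It overlapped between genotypes, with the same log2 change of -0.40 (standard error 0.31). Hspe1 read 689.5 and 863.4 in Tslc1-/- testis, against 583.4 and 813.4 in Tslc1+/+ testis. It also overlapped, with a log2 change of 0.15 (standard error 0.27), so the point estimates of this gene pair differed in sign while the ranges of 1 standard error around them were wide.

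Of the 10 tested member probe sets, 3 were called lower in Tslc1-/- testis (Dnajb8, Clpb and Hspa1l) and 1 was called higher (Dnaja2). Over all 7975 tested probe sets 1.08% were called, 0.840% lower and 0.238% higher. Both Tslc1-/- arrays lay on the same side of both Tslc1+/+ arrays for 6 of the 10 member probe sets, against 40.0% of all tested probe sets. Since the members were chosen with these differences known, nothing is read from the counts. The median log2 change was -0.79 over the 4 germ-cell genes and 0.15 over the 5 measured ubiquitous genes, beside 0.02 over all tested probe sets.

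With 1 of the 4 arrays left out in turn, the log2 change lay between -1.05 and -0.94 for Dnajb8, between -1.04 and -0.98 for Clpb, between -0.65 and -0.51 for Hspa1l and between 0.91 and 1.19 for Dnaja2. Hspa1l and Dnaja2 then passed the threshold in none of the 4 fits. As the members were chosen on these same arrays, such fits do not test the differences and do not rank the members. With a spread estimate that does not follow signal intensity, 0 of the members were called.

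**Figure D3:**
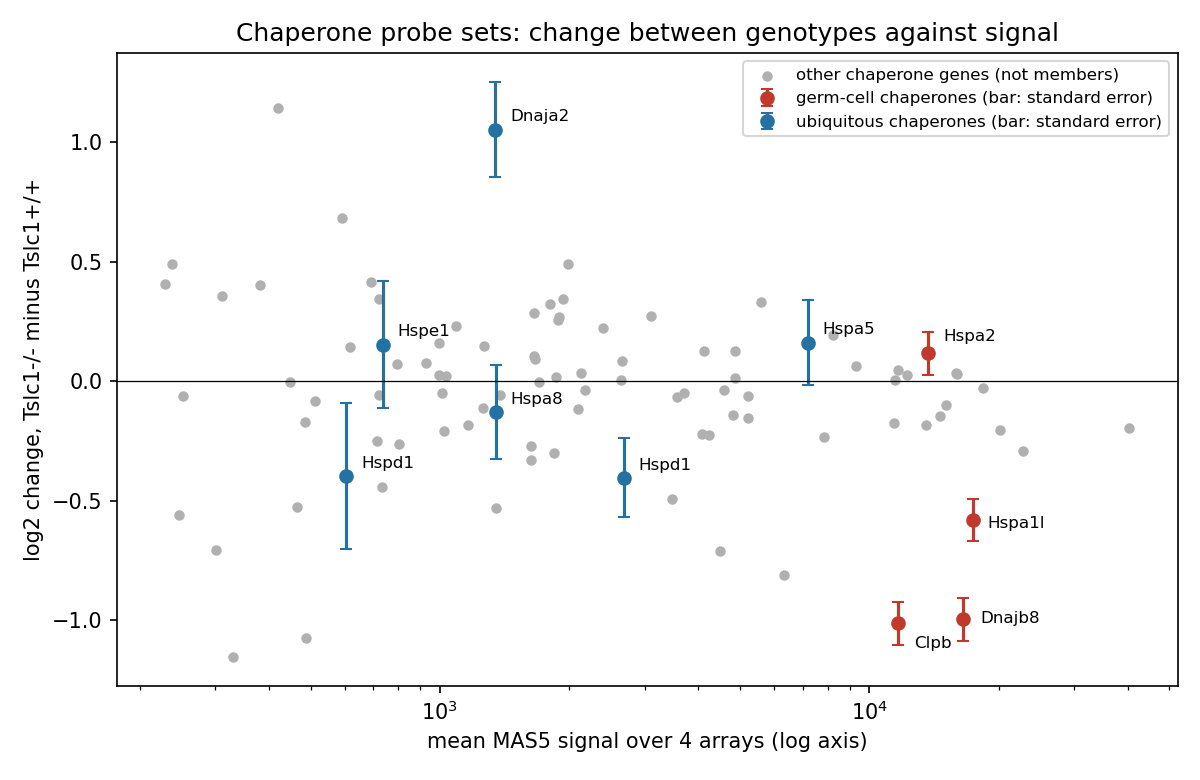
Log2 change (Tslc1-/- minus Tslc1+/+, vertical axis) against the mean MAS5 signal over the 4 arrays (horizontal log axis) for the 10 tested chaperone probe sets, with the standard error as a bar, and for 86 other chaperone genes in grey. Dnajb8, Clpb and Hspa1l lie below the grey points of similar signal, while Hspa2 lies among them and Dnaja2 lies above those of similar signal.

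The targeted gene was lower in the arrays labelled Tslc1-/-: on its brightest tested probe set Cadm1 had 775.9 and 604.5 in Tslc1-/- testis, against 3449.5 and 4027.9 in Tslc1+/+ testis. The other tested Cadm1 probe set read 443.5 and 444.9 in Tslc1-/- testis, against 3960.0 and 3925.2 in Tslc1+/+ testis. Every Cadm1 probe set has a suffix that marks possible cross-hybridisation, so the signal left in Tslc1-/- testis is not shown to be Cadm1 RNA. Median signals per array ran from 361.5 to 378, and log2 signals correlated across probe sets with r from 0.930 to 0.941 for every pair of arrays, within and between genotypes. Probe sets are not independent replicates. The ratio of the 3′ to the 5′ control probe set of beta-actin, a measure of RNA integrity and of labelling from the poly(A) end, was 1.56 and 1.73 in Tslc1-/- testis, against 1.20 and 1.43 in Tslc1+/+ testis. That of Gapdh was 0.953 and 0.925 in Tslc1-/- testis, against 1.06 and 1.12 in Tslc1+/+ testis. Both ratios separated the genotypes, in opposite directions, and their part in the chaperone differences was not tested.

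Most of the listed markers of haploid germ cells also read lower in Tslc1-/- testis. The marker lists were chosen with earlier results of these data known, so their values and counts are a description. Of 11 tested markers of elongating spermatids, 10 had a log2 change below 0 and 1 above 0, with a median of -0.51. Called lower were 6 of them, and none was called higher. Over all 7975 tested probe sets 0.840% were called lower. With a spread estimate that does not follow signal intensity, 0 probe sets were called, so no marker was. Their summed signal was 425069 and 398612 in Tslc1-/- testis, against 590817 and 594577 in Tslc1+/+ testis. The brightest, the transition protein gene Tnp2, had a change of -0.39 (limma, adjusted p = 0.0654). Of 7 tested round spermatid markers, all 7 had a change below 0, with a median of -0.54, and 4 were called lower. Their summed signal was 124292 and 127160 in Tslc1-/- testis, against 186565 and 193792 in Tslc1+/+ testis. The brightest, Tcp11, which acts in sperm capacitation, was called lower, with a change of -0.55 (limma, adjusted p = 0.00231).

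Markers of spermatocytes, the cells in which Hspa2 is first made, had a summed signal of 81410 and 72668 in Tslc1-/- testis, against 79244 and 82291 in Tslc1+/+ testis. Such sums mainly follow their brightest probe sets. Most of this one was Ldhc, with 69298.6 and 59745.9 in Tslc1-/- testis, against 63515.9 and 66567.2 in Tslc1+/+ testis. Of 5 tested spermatocyte markers, 1 was called lower, the germ cell phosphoglycerate kinase Pgk2. Changes were above 0 for 3 and below 0 for 2, with a median of 0.01 and a range from -0.78 (Pgk2) to 0.63 (Dmc1). The brightest, Ldhc, a lactate dehydrogenase of germ cells, had a change of -0.02 (limma, adjusted p = 0.970). Of 6 tested Sertoli cell markers none passed, with a median of 0.27, and the brightest, Clu, had a change of -0.03. Changes of single markers ran from -1.34 to 0.18 in the elongating spermatid list and from -0.87 to -0.08 in the round spermatid list. Those of Dnajb8 (-0.995), Clpb (-1.01) and Hspa1l (-0.58) lay inside the range of the elongating spermatid list. Only Oaz3 of that list, at -1.34, was more negative than Dnajb8 and Clpb, and the next was Akap4 at -0.90. The top of that range, 0.18, was Prm2 on a dim probe set. Dnajb8 and Clpb lay below the range of the round spermatid list, and Hspa1l lay inside it. That range uses the brightest tested probe set of each gene, which for Crem was at -0.08. A dimmer tested Crem probe set read 171.4 and 145.2 in Tslc1-/- testis, against 430.3 and 376.2 in Tslc1+/+ testis. Its change of -1.12 was more negative than those of Dnajb8 and Clpb, so their place outside the range depends on the probe set used. In whole testis, fewer spermatids and less of these RNAs per spermatid cannot be told apart, and the part of cell number in the chaperone values was not tested. None of the genes passed in the other marker lists, of spermatogonia (5 tested), Leydig cells (6), peritubular myoid cells (5), macrophages (3), endothelium (2), erythrocytes (2) and epididymis (1), by limma's adjusted p, with 0 to 2 of each list at an unadjusted p under 0.05. The summed signal of the 2 tested endothelial markers was 317 and 491 in Tslc1-/- testis, against 1420 and 1078 in Tslc1+/+ testis, and its part in the chaperone values was not tested. None of the tested markers was at 0 on any array.

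The rest of the protein folding machinery was read from a list of 127 genes, of which 95 were on the array and 86 tested. None passed (limma, adjusted p over all tested probe sets), with 8 of 86 at an unadjusted p under 0.05, beside 799 of all 7975 tested probe sets. Without the intensity trend none passed either, with 5 of 86 at an unadjusted p under 0.05, beside 638 of 7975. The median change was -0.02, 41 genes had a positive and 45 a negative change, and 76 of the 86 lay between -0.5 and 0.5. At 2 arrays per genotype, a change that did not pass is not shown to be absent.

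Bag1, a nucleotide exchange factor that lets HSP70 release its client, came nearest to passing. It read 2891.9 and 3934.1 in Tslc1-/- testis, against 5652.0 and 5440.2 in Tslc1+/+ testis, a log2 change of -0.71 (limma, adjusted p = 0.0654). Dnajb4, a cytosolic J-domain protein, read 3802.7 and 5386.2 in Tslc1-/- testis, against 9347.9 and 6822.0 in Tslc1+/+ testis, a change of -0.81 (limma, adjusted p = 0.0814). In both, all Tslc1-/- values lay below all Tslc1+/+ values, as in 18.5% of all tested probe sets. Bag1 and Dnajb4 passed when probe sets with a cross-hybridisation suffix were left out (limma, adjusted p = 0.0397 and 0.0458), and Bag1 also without Tslc1-/- replicate 2 (adjusted p = 0.0481). The adjusted p over 13 alternatives ran from 0.0012 to 0.582 for Bag1 and from 0.000501 to 0.618 for Dnajb4.

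Within the HSP70 and HSP110 proteins, 7 were tested and had a median of -0.11. Hspa4l, an HSP110 protein abundant in male germ cells and the brightest of them, had 12677.8 and 12740.2 in Tslc1-/- testis, against 14562.9 and 14299.3 in Tslc1+/+ testis, a change of -0.18 (limma, adjusted p = 0.529). Hspa4, its ubiquitous relative, had the most positive change, 0.13, on its brightest probe set, while its other tested probe sets ran from -0.49 to 0.02. The most negative change was that of Hspa14, -0.56, on a dim probe set whose values overlapped. The heat-inducible Hspa1a and Hspa1b, which lie beside Hspa1l and are near-identical to each other, so that their probe sets may share RNA, were dim. Hspa1a read 310.6 and 429.9 in Tslc1-/- testis, against 666.2 and 451.5 in Tslc1+/+ testis, and Hspa1b read 348.1 and 141.3 in Tslc1-/- testis, against 147.6 and 370.9 in Tslc1+/+ testis.

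Of the HSP90 proteins, Hsp90aa1, the inducible cytosolic form, was the brightest and had the most negative change. It read 39330.8 and 35920.9 in Tslc1-/- testis, against 41763.2 and 44289.4 in Tslc1+/+ testis, a change of -0.19 (limma, adjusted p = 0.422). Hsp90b1, the form of the endoplasmic reticulum, had a change of 0.00.

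The J-domain family was the largest, with 22 tested genes and a median of -0.11. Dnajb13, a radial spoke protein of the sperm axoneme and the brightest of these, had 17967.7 and 23133.2 in Tslc1-/- testis, against 25733.7 and 24241.8 in Tslc1+/+ testis, a change of -0.29 (limma, adjusted p = 0.403). Dnajb3, a J-domain protein of mouse spermatids, had changes of -0.21 and -0.36 on its probe sets (limma, adjusted p = 0.522 and 0.203), beside -0.995 for Dnajb8. The suffix of each Dnajb3 probe set marks possible cross-hybridisation. On each, both Tslc1-/- values lay below both Tslc1+/+ values, as in 18.5% of all tested probe sets. Dnajb1, a heat-inducible partner of HSP70, was at 0.33 (limma, adjusted p = 0.303) and Dnaja1, a relative of Dnaja2, at 0.32 (limma, adjusted p = 0.655). The most positive change was that of Dnajc5, a J-domain protein of secretory vesicles, 0.68, and the most negative that of Dnajc17, -1.07 (limma, adjusted p = 0.588 and 0.536). Both were dim. Dnajc17 read 129.4 and 543.1 in Tslc1-/- testis, against 725.1 and 556.7 in Tslc1+/+ testis. With 1 array left out, the change ran from 0.18 to 1.19 for Dnajc5 and from -1.93 to -0.21 for Dnajc17.

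The cytosolic chaperonin CCT, a ring that folds actin and tubulin, centred near 0: 9 of its genes were tested, with a median of -0.03 and a range from -0.33 (Cct8) to 0.26 (Tcp1). Cct7, the brightest, had 18277.8 and 18157.4 in Tslc1-/- testis, against 17818.5 and 19370.8 in Tslc1+/+ testis. Cct6b, the subunit made in testis, had 11135.0 and 12657.5 in Tslc1-/- testis, against 11090.0 and 11890.1 in Tslc1+/+ testis, with overlapping values. The 4 tested prefoldin subunits, which pass clients to CCT, ran from -0.08 (Vbp1) to 0.15 (Pfdn2), with Pfdn6, the brightest, at -0.07.

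Among 16 tested co-chaperones the median was 0.07. For Bag6, a client-sorting protein that is needed for spermatogenesis in mice and the brightest here, the change was 0.03. The most positive change was that of Fkbp5, an HSP90 partner of steroid receptors, 0.28 (limma, adjusted p = 0.673). The most negative was that of Unc45a, a myosin chaperone, -1.15 on a dim probe set (limma, adjusted p = 0.521). The 15 tested folding factors of the endoplasmic reticulum had a median of -0.05. Clgn, or calmegin, a lectin chaperone of spermatocytes and spermatids needed for sperm fertility in mice, had 14577.4 and 14495.6 in Tslc1-/- testis, against 15119.3 and 16034.2 in Tslc1+/+ testis, a change of -0.10 (limma, adjusted p = 0.770). Manf, a factor secreted under endoplasmic reticulum stress, had -0.49 (limma, adjusted p = 0.162) and Sdf2 had 1.14 on a dim probe set (limma, adjusted p = 0.497).

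Small heat shock proteins hold unfolded proteins until other chaperones act on them. The 4 tested small heat shock genes ran from -0.71 (Cryab) to 0.49 (Cryaa), with Hspb2, the brightest, at 0.34. The 3 tested mitochondrial proteases and exchange factors ran from -0.21 (Grpel1, also the brightest) to 0.36 (Clpx). Of the 4 tested regulators of the heat shock and unfolded protein responses, Hsf2, a heat shock factor active in germ cells, had -0.25, Xbp1 had 0.41, and Ddit3, the brightest, had 0.03 (limma, adjusted p = 0.806, 0.868 and 0.969).

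**Figure D4:**
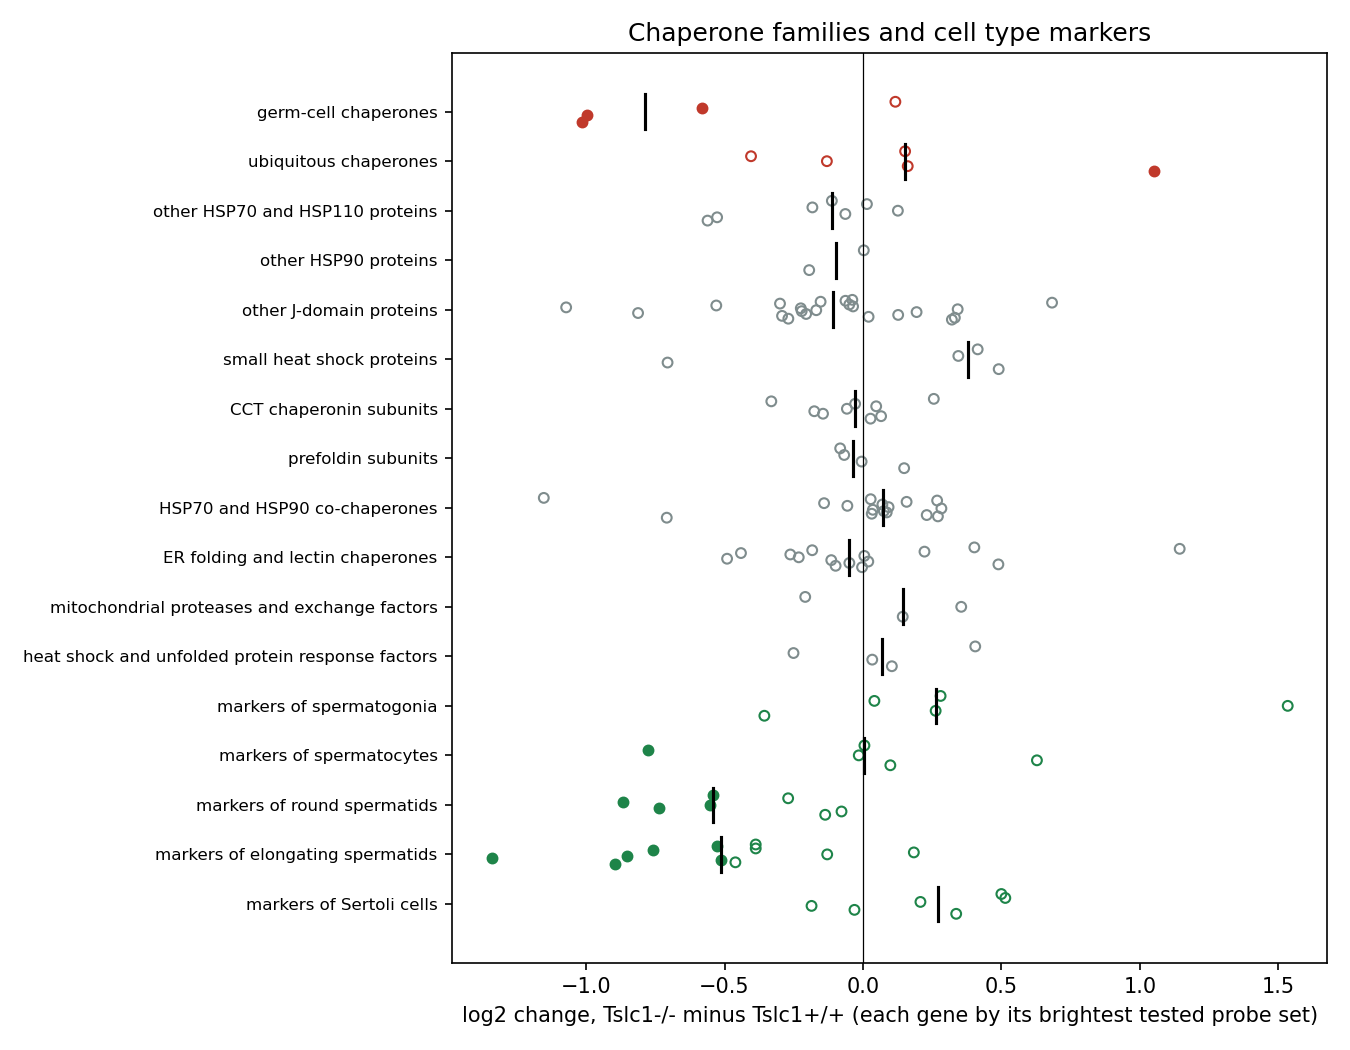
Log2 change (Tslc1-/- minus Tslc1+/+, horizontal axis) of each gene by its brightest tested probe set, in 1 row per chaperone family or marker list, with a black bar at each row's median and filled symbols for genes called at a limma adjusted p under 0.05. Filled symbols appear among the germ-cell and ubiquitous members and in the spermatocyte and spermatid marker rows, and none in the 10 rows of other chaperones, shown in grey.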

How the data were processed

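Per the labels' series design text, RNA was reverse-transcribed from an oligo(dT) primer, amplified and labelled by in vitro transcription and hybridised. Per the same text and the submitters' processing notes, the authors calculated probe set intensity with Microarray Suite 5.0 (MAS5) and scaled it to a target of 1000. The deposited values were linear, with a 2%-trimmed mean of 1001 on every array. Such scaling hides a change in total RNA.

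Of 12488 probe sets, 66 controls were left out. Names came from the platform annotation (1 gene for 10833, several for 396, none for 1193), updated through Entrez identifiers for 10817. Signals were used as log2(signal + 50) over probe sets with a mean signal of at least 200. limma 3.58.1 in R 4.3.3 (lmFit, eBayes with an intensity trend) compared Tslc1-/- with Tslc1+/+, two-sided, Benjamini-Hochberg adjusted over all 7975 tested probe sets. A permutation test of this size cannot reach the threshold, and the number of arrays limits precision. The fit was also run on simulated data whose spread followed signal intensity, as the trend assumes. That run cannot show whether the trend suits these arrays. Genes are represented by their brightest tested probe set. Promoter sequences are RefSeq's, build GRCm38.p6; the array's build is not given in the sources used here.

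Members and lists were chosen with earlier results of these data known. Named were all member probe sets, Cadm1, the brightest marker of the lists described and, in each other chaperone family, the brightest gene and those with the most positive and most negative change. Bag1, Dnajb4, Dnajb1, Dnaja1, Dnajb3, Cct6b, Hspa1a, Hspa1b and Pgk2 were chosen after their values were seen. Alternatives were no trend, other signal filters (none, 500), pseudocounts (16, 100), quantile scaling, equal medians, no cross-hybridisation suffixes, a replicate block, 1 array left out, and means over a gene's probe sets. Same-numbered arrays did not deviate together (r = -0.00119 across probe sets), and no label pairs them.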

Additional observations from a re-analysis of the deposited data

How the results depend on the processing

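The 3 lower germ-cell chaperones and Dnaja2 kept their direction under all 13 alternatives run on probe sets, which is no sign of stability, as they were chosen on these arrays. The number of probe sets called was 0 without the intensity trend, 37 to 43 with 1 array left out and 239 with the replicate number as a block. The number of member probe sets called was 0 without the trend and 2 with any 1 array left out. The median change of the germ-cell members was -0.69 with quantile normalization and -0.80 to -0.75 with 1 array left out. That of the ubiquitous members ran from -0.17 to 0.30, and was -0.17 without Tslc1-/- replicate 2 and -0.07 without Tslc1+/+ replicate 1. Among members that were not called, Hspa5 changed sign without Tslc1-/- replicate 2, Hspa8 without Tslc1+/+ replicate 2 (0.053) and Hspe1 without Tslc1+/+ replicate 1 (-0.071) and, by a negligible amount, without Tslc1-/- replicate 2 (-2.3e-05). Dnaja2 was also not called without a signal filter or with quantile normalization. Of the other chaperone genes, 2 passed without suffixed probe sets, 3 with the replicate block (Bag1, Dnajb4 and, at an adjusted p of 0.0497, Manf) and 0 to 1 with 1 array left out. The block changed no other call among the chaperones that the text names. Cct7 was at 0.094 with quantile normalization and Hsp90b1 at -0.0031 with equal array medians. With 1 array left out, sign changes of uncalled genes gave ranges of -0.020 to 0.084 for Bag6, -0.088 to 0.032 for Cct7, -0.077 to 0.79 for Clpx, -0.18 to 1.16 for Cryaa, -1.49 to 0.076 for Cryab, -0.083 to 0.15 for Ddit3, -0.041 to 0.048 for Hsp90b1, -1.62 to 0.50 for Hspa14, -0.036 to 0.33 for Pfdn2, -0.14 to 0.0084 for Pfdn6 and -0.40 to 0.24 for Vbp1. The cause of these shifts was not tested. With 1 array left out, the lone array of a genotype is assumed to vary like the other genotype. The spread is wider at low signal, which limits what can be said of dim probe sets.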
